A study of Mus musculus with 2 samples.

Results

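The 10 miRNAs mmu-miR-5126, mmu-miR-2861, mmu-miR-3960, mmu-miR-2137, mmu-miR-6366, mmu-miR-6240, mmu-miR-3154, mmu-miR-1195, mmu-miR-1902 and mmu-miR-690 gave most of the brightest mouse miRNA spots in this study, and 10 of the 1900 mouse miRNA probes on each array carried their names. The prefix mmu, for mouse, is left out from here on. They were picked by level, because each was among the 10 highest mouse miRNA probes by deposited spot intensity on 1 or both arrays. Their levels are therefore described without a test. Not every probe with such a rank is among the 10. miR-7005-5p, at rank 1 on both arrays, and miR-150-5p, at rank 7 on the germ-free array, are left out. The study used arrays to profile miRNAs in mononuclear cells from the lamina propria of the colon, the immune-cell-rich layer under the gut epithelium. It compared male Balb/c mice kept specific pathogen-free (SPF), which carry a gut microbiota, with male Balb/c mice kept germ-free, which carry none. Each group had 1 array, and the sources used here do not give the ages or the number of animals behind each RNA sample. No difference between the groups has a replicate error or a test. Cell number and RNA per cell cannot be told apart in such bulk samples.

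A miRNA is a short RNA cut from a hairpin precursor, and bases 2 to 8 from its 5′ end, the seed, pair with target mRNAs. Names are numbered in order of registration, so high numbers mark late entries, many of them found by deep sequencing. Registries of such entries are known to hold some sequences that match fragments of repeats or of other abundant RNAs. The label of late-numbered miRNAs held for 9 of the 10, which have a number above 1000, and not for miR-690. There are reports of miR-690 from immune cells in mice, where it was described in myeloid suppressor cells and in vesicles released by macrophages. In mouse osteoblasts, miR-2861 was described as a repressor of Hdac5 and miR-3960 as a repressor of Hoxa2.

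Mature sequences were matched by name in the RefSeq table (GRCm38.p6) for 9 of the 10, and are shown so that their base composition and seeds can be read beside the levels. Each is written 5′ to 3′ with the seed in capitals. miR-3960 is named only.
miR-5126: gCGGGCGGggccgggggcgggg
miR-2861: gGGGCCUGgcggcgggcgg
miR-2137: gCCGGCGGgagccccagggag
miR-6366: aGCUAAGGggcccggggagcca
miR-6240: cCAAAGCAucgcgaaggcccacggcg
miR-3154: cAGAAGGGgagucgggagcgga
miR-1195: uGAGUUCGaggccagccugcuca
miR-1902: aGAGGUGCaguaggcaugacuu
miR-690: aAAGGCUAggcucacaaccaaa

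GC content differed widely among these 9 sequences. It was 100% for miR-5126, 94.7% for miR-2861, 85.7% for miR-2137, 72.7% for miR-6366, 69.2% for miR-6240 and 68.2% for miR-3154. It was 60.9% for miR-1195, 50% for miR-1902 and 45.5% for miR-690. The median of the 9 was 69.2%, against 52.2% over the 1614 probes of the arrays with a mature sequence. A GC content of 68% or more was found in 6 of the 9, against 8.2% of the 1614. This cut falls just below the value of miR-3154, so the count of 6 depends on it and is a description only. A run of at least 4 G was found in 4 of the 9, against 11.3% of the 1614. These traits were also frequent among the brightest probes with a sequence, of which the 9 are a large part. Among the 20 brightest probes with a sequence, the 9 included, the median GC content was 68.2%. Of these 20, 11 had a GC content of 68% or more, the 6 members among them. A run of at least 4 G was found in 11 of the 20 (55%), the 4 members among them. The 9 seeds all differ. A seed was shared with another probe only by miR-2861, with miR-3091-3p, and by miR-6240, with miR-330-3p.
miR-3091-3p: cGGGCCUGaccagucucaagac
miR-330-3p: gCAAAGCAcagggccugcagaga
The seed partners were weak. miR-3091-3p had a net intensity of 25.8 on the SPF array and 27.9 on the germ-free array, and miR-330-3p had 63.2 and 64.5 on the same arrays.

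The sequences lie at scattered places in the genome (GRCm38.p6, with genes from GENCODE M21 on GRCm38). miR-2861 lies at chr2:32712819-32712837 on the minus strand. The hairpin genes Mir2861 (chr2:32712807-32712888) and Mir3960 (chr2:32712900-32712972) are 11 bases apart on that strand, in an exon of Cdk9 annotated as UTR on the same strand. miR-1902 at chr2:104428871-104428892 (minus strand) also lies in an exon annotated as UTR on the same strand, of Hipk3. miR-5126 at chr1:84695890-84695911 (plus strand) lies opposite an exon of Dner annotated as UTR. miR-690 at chr16:28599940-28599961 (minus strand) and miR-2137 at chrX:72992113-72992133 (plus strand) lie in introns of Fgf12 and Zfp185 on the same strand. miR-3154 at chr2:32318317-32318338 (plus strand) lies opposite an intron of Dnm1, and miR-1195 at chr17:70860558-70860580 (minus strand) opposite an intron of the pseudogene Gm9320. miR-6240 at chr5:114851973-114851998 (plus strand) and miR-6366 at chr16:18165093-18165114 (minus strand) overlap no gene besides their own miRNA gene.

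The label also raises other RNAs as a source of the sequences. The 9 sequences were searched on both strands in the 141767 transcripts of GENCODE M21, leaving out miRNA transcripts and genes at the miRNA's own place. miR-690 was found without mismatch in 3 genes on the sense strand (Fundc2, BC018473 and Gm42826) and in 1 on the antisense strand (Zfp101). None of the other 8 had such a match, and 1.43% of the 1614 sequences did. With up to 2 mismatches, miR-1195 matched 1150 genes, miR-2861 28, miR-690 26 and miR-5126 21. The other 5, miR-6366, miR-2137, miR-6240, miR-1902 and miR-3154, matched none. Any such match was thus found for 4 of the 9, against 23.5% of the 1614. A match in at least 10 genes was found for the same 4, against 3.28% of the 1614. In at least 100 genes it was found for miR-1195 only, against 1.05%. The contrast with the 1614 thus depends on the cut and is a description only. Genes of ribosomal, transfer, small nuclear or small nucleolar RNA or of the miscellaneous RNA class were among the matches of miR-1195 only, in 10 of its 1150. As background, the miR-1195 sequence resembles the B1 short interspersed repeats of rodents. The longest nuclear ribosomal RNA transcript in the set had 1849 bases, so longer ribosomal RNAs were not searched here. Which transfer RNA genes the set holds was not checked, so nothing is read about fragments of transfer RNA. A match is a description of letters and does not show which RNA bound a spot.

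The levels below are net intensities in arbitrary units. The mean of the spots named BLANK was subtracted (158.3 on the SPF and 128.5 on the germ-free array). The SPF values were multiplied by 0.849, which made the median of the 1471 miRNA probes above the floor on both arrays equal. The floor is the mean + 2 SD of the blank spots. On both arrays all 10 probes lay far above that median of 84.6. They held 21.5% of the net mouse miRNA signal on the SPF array and 19.4% on the germ-free array.

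The 6 probes with a GC content of 68% or more, and miR-3960, had these levels. miR-5126 had a net intensity of 30160 on the SPF array and 24972 on the germ-free array. miR-6366 had 26999 on the SPF array and 25415 on the germ-free array. miR-2137 had 26121 on the SPF array and 25219 on the germ-free array. These 3 took ranks 2 to 4 among all mouse miRNA probes on both arrays. miR-6240 had 23651 on the SPF array and 19841 on the germ-free array, and was the sixth brightest on each. miR-3154 had 17648 on the SPF array and 14178 on the germ-free array. miR-2861, encoded beside miR-3960, had 15446 on the SPF array and 12909 on the germ-free array, and was the weakest of the 10 on the germ-free array. miR-3960 itself had 22364 on the SPF array and 16706 on the germ-free array.

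The 3 probes with lower GC content included those with the largest differences between the arrays. miR-690 had a net intensity of 24725 on the SPF array and 18554 on the germ-free array. miR-1902 had 16849 on the SPF array and 23857 on the germ-free array, at ranks 9 and 5. miR-1195 had 12440 on the SPF array and 17704 on the germ-free array, at ranks 11 and 9, and was the weakest of the 10 on the SPF array.

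**Figure D1:**
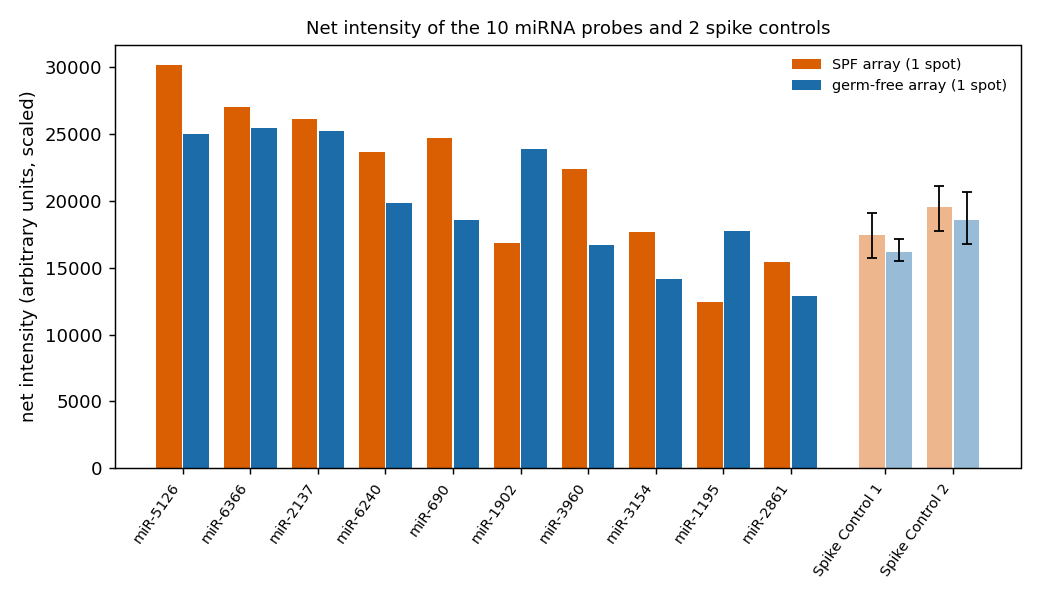
Net intensity (arbitrary units, SPF scaled) of the 10 probes on the SPF array (orange) and the germ-free array (blue), 1 spot each, in order of mean level, with the means of 2 spike controls at right whose error bars span the lowest and highest of 8 spots. 8 probes are higher on the SPF array, while miR-1902 and miR-1195 are lower.

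A technical error can be read from control probes spotted 8 times on each array, of which both spike controls had levels like those of the 10. Spike Control 1 averaged 17412 on the SPF array (15740 to 19117) and 16137 on the germ-free array (15478 to 17108). Spike Control 2 averaged 19515 on the SPF array (17703 to 21120) and 18589 on the germ-free array (16745 to 20651). The other 3 averaged 326 to 5232 on the SPF array and 280 to 4846 on the germ-free array. Over all 5 control probes the SD of log2 intensity among repeated spots was 0.0908. That gives 0.128 for a difference of single spots and a 95% technical limit of 0.252. From both spike controls alone, a choice made after seeing the data, the limit is 0.259. The limit covers spots within an array only, not extraction, labelling, hybridisation or animals.

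The order of levels is an order of spot intensities, which also depend on how each probe binds, and not of miRNA amounts. Repeated spots of one probe set the limit, so it covers only part of the error between probes. On the SPF array neighbouring levels differed by more than 0.252 on the log2 scale at 2 places only, between miR-3960 and miR-3154 (0.34) and between miR-2861 and miR-1195 (0.31). On the germ-free array they did so once, between miR-1902 and miR-6240 (0.27). The other neighbours differed by less.

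The comparison of SPF with germ-free mice asks how the microbiota relates to miRNA levels in the colonic lamina propria. No member differed 2-fold. Of all 1471 probes above the floor on both arrays, the SPF level was higher by 2-fold or more for 1.56% and lower by 2-fold or more for 1.43%. At a threshold of 1.5-fold, 0 of the 10 were higher, against 4.62% of the 1471, and 0 were lower, against 7.61%. The SPF level was 25% or more above the germ-free level for 2 of the 10, against 13.5% of the 1471. The germ-free level was 25% or more above the SPF level for 2 of the 10, against 20.5%. In either direction, 8 of the 10 were higher on the SPF array, against 42.4% of the 1471, and 2 were lower, against 57.6%. The rule used these intensities, so the counts are not read further. The median log2 SPF over germ-free of the 10 was 0.26, beside -0.06 over the 1471. It was -0.06 over the 100 brightest other probes, of which 43 were higher.

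**Figure D2:**
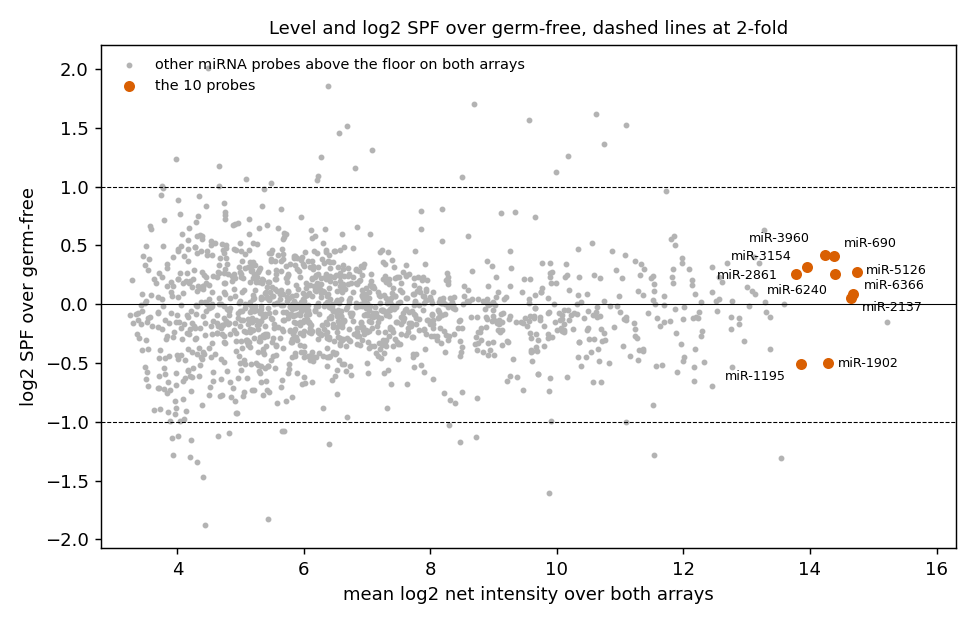
Log2 SPF over germ-free against mean log2 net intensity for the 1471 probes that passed the floor on each array, with the 10 probes in orange and dashed lines at 2-fold. The 10 probes lie at the bright end between -0.51 and 0.42, inside the dashed lines.

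miR-3960 and miR-690 were the furthest on the higher side. Log2 SPF over germ-free was 0.42 for miR-3960 and 0.41 for miR-690, a 1.34-fold and a 1.33-fold level on the SPF array. Smaller positive values were 0.32 for miR-3154, 0.27 for miR-5126, 0.26 for miR-2861 and 0.25 for miR-6240. miR-2861 and miR-6240 were beyond the limit of 0.252 but not beyond that of both spike controls, 0.259. miR-6366 at 0.09 and miR-2137 at 0.05 were inside the technical limit, on either basis. With the blank mean subtracted, the neighbours miR-2861 and miR-3960 thus had the same direction and differed in log2 value by less than the technical limit. With subtraction of the light around each spot instead, described below, they had opposite signs, at -0.34 for miR-2861 and 3.05 for miR-3960.

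miR-1902 and miR-1195 went the other way. Log2 SPF over germ-free was -0.50 for miR-1902 and -0.51 for miR-1195, so that the germ-free level was 1.42-fold the SPF level for each. Both had values beyond the technical limit. The choice of members bears on 3 of these values, because miR-1195 was picked for its place on the germ-free array alone, and miR-2861 and miR-3154 for theirs on the SPF array alone. Without these 3 the median log2 value was 0.25.

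How far the values exceed the technical limit depended on the scaling. With the scaling described above, 8 of the 10 were beyond 0.252, 6 higher and 2 lower, and 6 were beyond 0.259, 4 higher and 2 lower. The share of the 1471 probes beyond these limits was not computed. At the wider threshold of 25%, 13.5% of the 1471 were higher on the SPF array and 20.5% lower. The counts are therefore not read as particular to the 10. The 5 bright control probes themselves stood at 0.07 to 0.22 on the log2 scale between the arrays after that scaling. With scaling on these control probes, 4 were beyond the limit, miR-3960 (0.29) and miR-690 (0.29) higher and miR-1902 (-0.63) and miR-1195 (-0.64) lower. The signs of miR-6366 and miR-2137 turned, to -0.04 and -0.08.

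The light around the 10 spots differed between the arrays. The deposited local background of the 10 spots was 6.04% to 67.4% of the spot intensity on the SPF array, with a median of 29.9%. It was 34.1% to 88.9% on the germ-free array, with a median of 59.2%. The repeated control spots had a median of 56.1% on the SPF array and 87.8% on the germ-free array. Over all 1900 mouse miRNA probes the medians were close, 73.2% on the SPF array and 74.8% on the germ-free array. For miR-3960 it was 16.6% on the SPF array and 88.9% on the germ-free array. For miR-690 it was 6.83% on the SPF array and 73.1% on the germ-free array, and for miR-6240 6.04% and 63.4% on the same arrays. For miR-5126 both arrays were alike, at 51.8% and 49.9%.

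**Figure D3:**
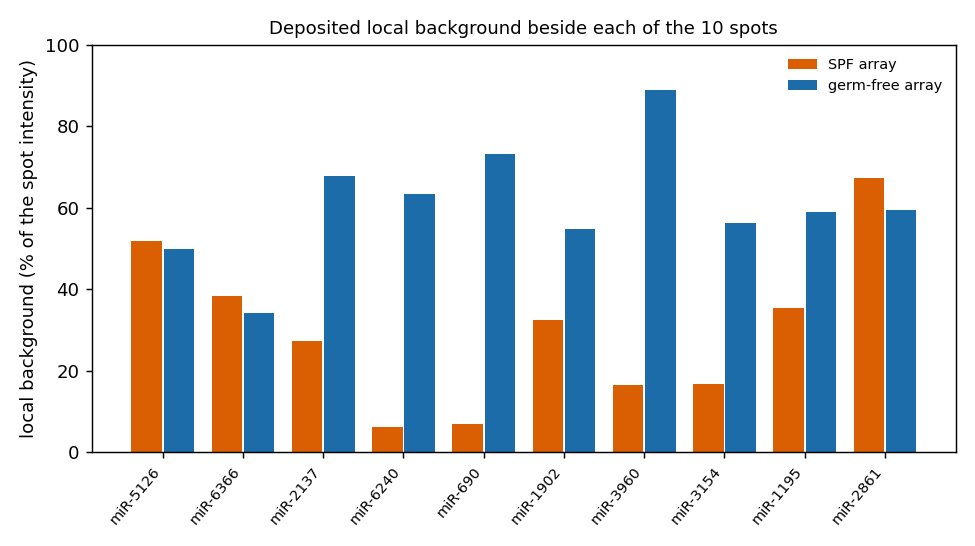
Deposited local background as a percentage of the spot intensity for the 10 spots, on the SPF array (orange) and the germ-free array (blue). miR-2861, miR-5126 and miR-6366 have slightly higher shares on the SPF array, while the shares of the other 7 are higher on the germ-free array.

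When this local background was subtracted in place of the blank mean, log2 SPF over germ-free became 3.05 for miR-3960, 1.92 for miR-690 and 1.33 for miR-6240. miR-5126, miR-2861 and miR-6366 turned to -0.07, -0.34 and -0.29. miR-1902 and miR-1195 kept their sign, at -0.20 and -0.13. Repeated control spots had a log2 SD of 1.30 under this setting, against 0.0908 with the blank mean. The part of the surrounding light in the differences was not tested.

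**Figure D4:**
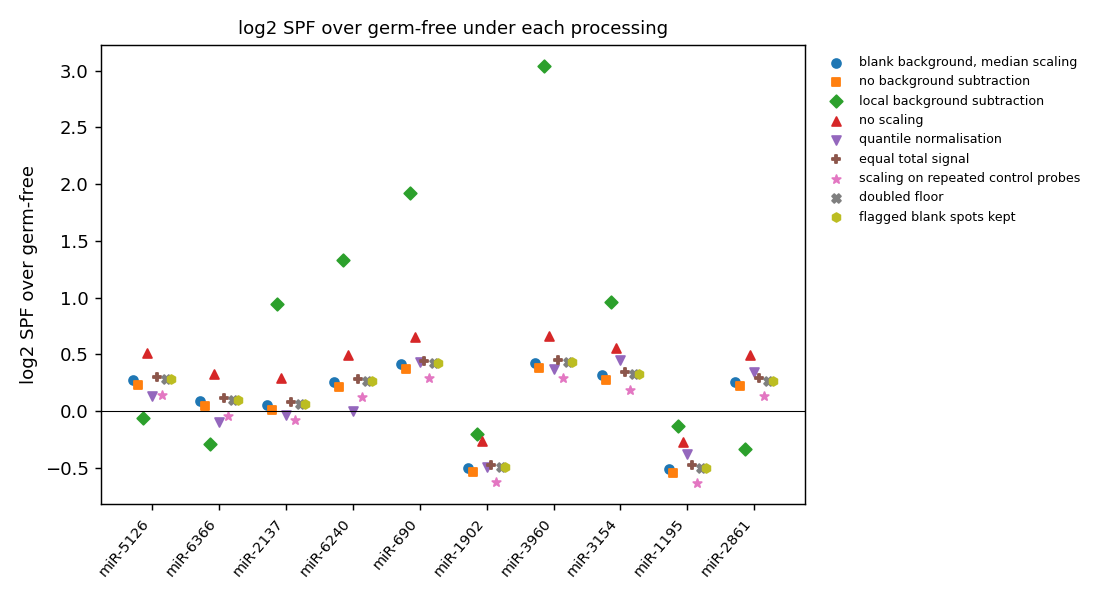
Log2 SPF over germ-free of the 10 probes (1 spot per array) under the blank background with median scaling and 8 other settings, each with its own marker. Local background subtraction (green diamonds) moves miR-3960 to 3.05 and miR-690 to 1.92, while miR-1902 and miR-1195 stay below 0 in every setting shown.

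The deposited numbers had more than 1 form. Per the file headers each array was scanned at 3 gains, with least-squares lines that relate gain 1 to the others. Most deposited intensities carry decimals, but 26 of 3200 on the SPF array and 22 of 3200 on the germ-free array are whole to the 6 decimals deposited. These are bright spots, the lowest at 18348 on the SPF array and 16752 on the germ-free array, and 15 of the 26 and 11 of the 22 were spike control spots. Whole values were found for 9 of the 10 members on the SPF array, all but miR-1195, and for 8 on the germ-free array, all but miR-3154 and miR-2861. For these 3 the form thus differed between the arrays. Among the other mouse miRNA probes, only miR-7005-5p was whole on the SPF array, and only miR-7005-5p and miR-150-5p on the germ-free array. The files do not say which gain gave which value. No spot reached 65535, the maximum of a 16-bit scan, and the highest were 42737 on the SPF array and 43225 on the germ-free array.

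Over all probes, those for GC-rich miRNAs were brighter. Of the 1614 probes with a mature sequence, 1250 were above the floor on both arrays, the 9 members included. Over these 1250, Spearman's rho between GC content and level was 0.386 on the SPF array and 0.389 on the germ-free array. These probes share 2 arrays and their labelling, so rho is a description. The median net intensity was 591 on the SPF array and 630 on the germ-free array at a GC content of 70% or more, against 64.5 and 63.6 at 50 to 60%. Between GC content and log2 SPF over germ-free rho was 0.039. The median log2 value at a GC content of 70% or more was -0.0050.

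Levels spanned a wide range among probes of very high GC content. miR-8109, at 95.2% GC, had a net intensity of 40.4 on the SPF array and 50.6 on the germ-free array. miR-6538, at 94.7% GC like miR-2861, had 9235 on the SPF array and 8674 on the germ-free array. miR-8109 was singled out after its values were seen.

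**Figure D5:**
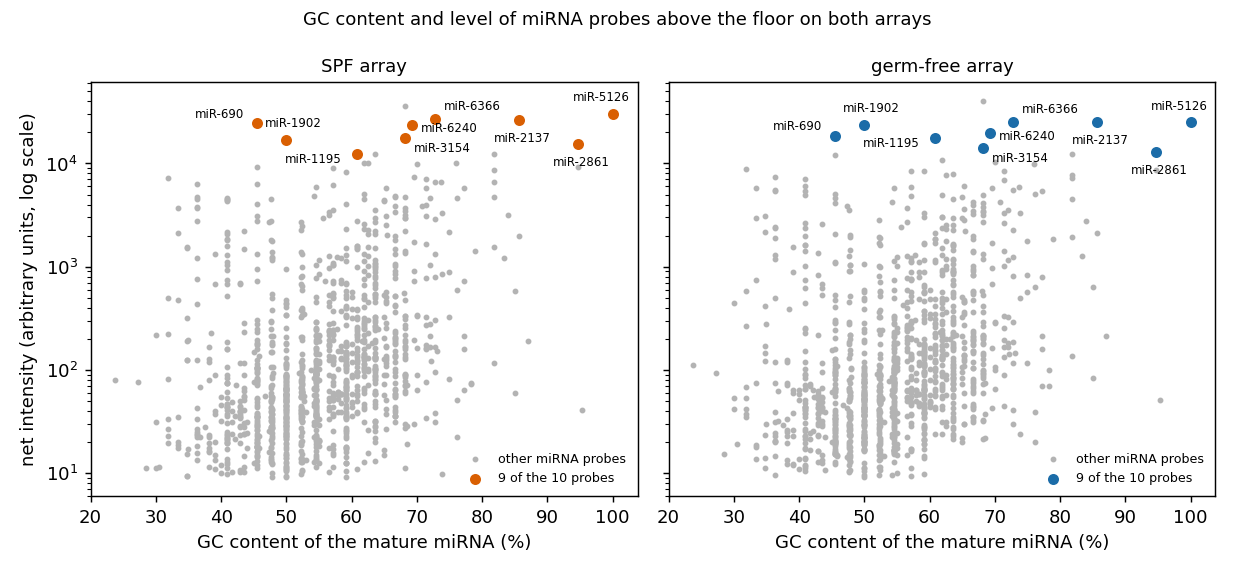
Net intensity (log scale) against GC content of the mature miRNA for the 1250 probes with a sequence and a level above the floor on both arrays, SPF array at left and germ-free array at right, with 9 of the 10 probes coloured. Levels tend to be higher at higher GC content over all probes. miR-690 and miR-1902 lie at 45.5% and 50%, with levels inside the range of the GC-rich members on both arrays.

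Because the 10 were chosen among the brightest, lower levels of nearly all other probes follow from the choice. The values of the other probes are given as a description. Of the 69 other probes within 5 numbers of a member, 52 passed the floor on each array, with a median of 65.7 on the SPF array and 70.3 on the germ-free array. The brightest, miR-3963, had 2706 on the SPF array and 3870 on the germ-free array. miR-6244 had 2302 on the SPF array and 3004 on the germ-free array, and miR-6238 had 2783 and 2343 on the same arrays. Over the 893 other probes with a number above 1000 and a level above the floor on both arrays, the median was 92.0 on the SPF array and 90.8 on the germ-free array. Over the 569 such probes numbered up to 1000 or named let-7, miR-690 included, it was 67.1 on the SPF array and 72.8 on the germ-free array.

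The other bright mouse probes were led by miR-7005-5p, the highest on each array, at 36157 on the SPF array and 40202 on the germ-free array. Next below the 10 by mean log2 level over both arrays came miR-149-3p, at 12348 on the SPF array and 12363 on the germ-free array. It was also the nearest of all other probes to the median level of the 10 on both arrays. Its distance was 1.10 log2 units over these 2 arrays, and next in distance came miR-7005-5p and then miR-5100 at 1.44. The last probes inside the rule, at rank 10, were miR-2861 on the SPF array at 15446 and miR-3960 on the germ-free array at 16706. The first outside it, at rank 11, were miR-1195 on the SPF array at 12440 and miR-3154 on the germ-free array at 14178, which are members through the other array. The rest of the 20 brightest were miR-150-5p, miR-16-5p, miR-6769b-5p, miR-3547-5p, miR-711, miR-7042-5p and miR-6538. miR-150-5p, a lymphocyte miRNA that represses Myb, had 7552 on the SPF array and 18699 on the germ-free array. miR-16-5p, which represses Bcl2, had 9253 on the SPF array and 12058 on the germ-free array. miR-711 had 12342 on the SPF array and 7948 on the germ-free array. Log2 SPF over germ-free was -0.11 for miR-5100 and lay between -0.07 and 0.36 for the other 4.

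Known miRNAs of the cells under study were also read. All 7 leukocyte markers were above the floor on both arrays, from 321 to 7552 on the SPF array and from 412 to 18699 on the germ-free array. Their sums were 16881 on the SPF array and 31615 on the germ-free array, and 9328 and 12915 on the same arrays without miR-150-5p. Of the 7, miR-223-3p and miR-146a-5p were higher on the SPF array, with log2 values of 0.74 and 0.07. Markers of intestinal epithelium, a cell type that can be carried into such an isolate, were all above the floor as well (8 of 8), with sums of 14529 on the SPF array and 5458 on the germ-free array. Erythroid miR-451a was bright, at 4505 on the SPF array and 5447 on the germ-free array, and erythroid miR-144-3p had 31.1 and 53.2 on the same arrays. Liver miR-122-5p and neuronal miR-124-3p lay close to the floor, at 19.2 and 9.53 on the SPF array and 9.71 and 11.6 on the germ-free array. Heart miR-208a-3p did not exceed the blank mean on either array. The part of these cell types in the values of the 10 was not tested. miR-712-5p, a miRNA of mice described as a product of ribosomal precursor RNA, had 476 on the SPF array and 473 on the germ-free array, and miR-712-3p had 262 and 260 on the same arrays.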

How the data were processed

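Total RNA of 2 samples, 1 SPF and 1 germ-free, was prepared with a Qiagen kit and given a Hy5 label with an Exiqon kit, per the labels' protocols. The deposited values are the median intensity of each spot (3200 spots) at 635 nm and that of its surroundings, from scans at 3 gains per the file headers. Neither background subtraction nor scaling between the arrays shows in them. Most carry decimals, and the files do not say whether values were converted between gains. The sources used here give no array platform, miRBase release or scanner software. The mean of the blank spots was subtracted (895 on the SPF array, without 1 that its file marks NG, and 896 on the germ-free array) and SPF values were scaled by 0.849. Each miRNA probe has 1 spot, so the number of arrays limits the precision. With 1 array per group no test was run.

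Members and comparison lists were chosen with earlier results of these data known. The text names the 10 members, probes sharing a seed with one, the other probes among the 20 brightest, the 3 probes nearest to the median level of the members, the 3 brightest with a number within 5 of a member's, miR-712 and marker miRNAs. miR-715 has no probe here. Sequences come from the RefSeq miRNA table, which matched 1614 of 1900 probes by name. Alternatives were no or local background, no scaling, quantile, equal total or control-probe scaling, a doubled floor, keeping the flagged blank spot and 2 lower fold thresholds. The procedure was tested on simulated arrays. Python 3.11.15, numpy 2.4.6, pandas 2.3.3, numba 0.67.0 and matplotlib 3.10.9 were used.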

Additional observations from a re-analysis of the deposited data

How the results depend on the processing

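The median log2 SPF over germ-free of the 10 probes was 0.26. It was 0.44 with local background subtraction, 0.49 without scaling and 0.064 with quantile normalisation, and stayed between 0.13 and 0.29 under no background subtraction, equal total signal, scaling on control probes, a doubled floor, keeping the flagged blank spot, and leaving out the 3 probes among the highest 10 on 1 array only, an alternative chosen after seeing the data. The number of probes higher on the SPF array was 8. It was 5 with local background subtraction and 5 with quantile normalisation, where miR-6240, at the same rank on both arrays, has a value of 0. The number past 2-fold was 0, but 3 with local background subtraction. No share of all probes past 2-fold is given for local background subtraction, where repeated control spots had a log2 SD of 1.30. The 3 are therefore not read further. With the main processing, 4 probes differed between the arrays by 25% or more. The number beyond the technical limit was 8, but 5 without background subtraction and 4 with scaling on control probes, and 6 with the limit taken from both spike controls, also chosen after seeing the data. The share of the 1471 probes beyond the limit was not computed under any setting. The share of the net signal held by the 10 was 17.3% on the SPF array and 15.8% on the germ-free array without background subtraction, since the background of the weaker probes then counts as signal. Of the 10 single log2 values, local background subtraction and no scaling each moved all 10 by more than the technical SD of 0.128, and quantile normalisation 4. After local background subtraction miR-3960 was at rank 44 on the germ-free array and miR-2861 at rank 21 on the SPF array. Each array stands alone, so no replicate could be left out. No paired analysis was possible, because each group has 1 array and the labels name no pairs.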
